A study of Sus scrofa with 8 samples.

Results

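IGF2, IGFALS and STAT3 are genes of growth factor and cytokine signalling, and they were taken by their gene names from the table of normalized counts per pig. They are 3 of the 458 genes in that table. RNA was sequenced from the dorsal subcutaneous fat, a whole tissue of mixed cells, of 4 Alentejano (AL) and 4 Bísaro (BI) pigs, local breeds of Portugal that differ in fat deposition, with 1 library per pig. All pigs were purebred castrated males raised outdoors under the same conditions on a commercial diet without restriction, and the AL pigs were, per the study's methods, on trial for longer on average than the BI pigs. The labels give 150 kg as the carcass weight of every pig, which the methods describe as the weight at slaughter. Breed is the one factor that was compared, no treatment or transgene was used, and ages are not given in the sources used here.

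Insulin-like growth factors are peptide hormones that act through receptor tyrosine kinases, and most of the circulating growth factor is held by binding proteins. IGF2 is the form best known for fetal growth, and in the pig a regulatory variant of this imprinted gene is known for its effect on muscle mass and backfat. IGFALS encodes the acid-labile subunit, a leucine-rich protein that is known mainly as a product of the liver and that joins growth factor and binding protein into the long-lived ternary complex of plasma. STAT3 is the transcription factor that carries signals of interleukin 6 family cytokines and of leptin from JAK kinases at the receptor to the nucleus.

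The positions below are those of the RefSeq annotation on Sscrofa11.1, the build to which the authors aligned the reads. IGF2 (ENSSSCG00000035293) lies on the minus strand of chromosome 2 from 1469183 to 1496417, with 12 merged exons of 7.326 kb in total and 15 annotated start sites. The 3′ end of INS, the insulin gene on the same strand, lies 425 bases beyond its 5′ side. IGFALS (ENSSSCG00000008013) lies on the plus strand of chromosome 3 from 40173595 to 40177789, with 3 merged exons of 2.115 kb and 2 annotated starts. STAT3 (ENSSSCG00000017403) lies on the plus strand of chromosome 12 from 20407316 to 20471091, with 25 exons of 2.473 kb and 1 annotated start.

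Upstream sequence is shown because the 3 genes had higher counts in the same breed, and to set out the composition of their start regions. Each sequence runs 5′ to 3′ on the strand of its gene, and capitals mark 4 short motifs searched on both strands, which are the CCAAT box, the GC box GGGCGG, the TATA box as TATAA, and TTCNNNGAA, the palindrome that STAT dimers can bind. For IGF2 the 250 bases before the start that holds TATAA without any exon are given (chr2:1478990-1479239, minus strand), for STAT3 the 250 bases before its annotated start (chr12:20407066-20407315, plus strand), and for IGFALS the 29 bases around the STAT-type palindrome (chr3:40173552-40173580, plus strand, with the palindrome alone in capitals).
IGF2: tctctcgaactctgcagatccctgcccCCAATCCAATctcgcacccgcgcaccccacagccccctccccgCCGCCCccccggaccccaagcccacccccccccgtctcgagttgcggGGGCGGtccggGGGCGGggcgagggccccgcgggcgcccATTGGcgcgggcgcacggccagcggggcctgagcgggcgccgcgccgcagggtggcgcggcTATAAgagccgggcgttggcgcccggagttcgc
IGFALS: gatctataatTTCTCAGAAgagaagctga
STAT3: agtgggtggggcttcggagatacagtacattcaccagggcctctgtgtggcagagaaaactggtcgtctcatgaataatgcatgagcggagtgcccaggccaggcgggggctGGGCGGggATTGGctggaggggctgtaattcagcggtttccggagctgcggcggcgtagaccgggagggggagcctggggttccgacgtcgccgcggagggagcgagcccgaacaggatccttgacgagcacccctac

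The palindrome of IGFALS begins 33 bases before the more upstream of its 2 starts, inside the span of an uncharacterized opposite-strand gene, LOC110259948, whose exons cover 193 of the 250 bases before that start. Over windows from 250 bases before to 50 bases after each start, TTCNNNGAA was found at 1 of the 2 IGFALS starts, at 0 of the 15 IGF2 starts and not at the STAT3 start, against 7.12% of 19556 promoters. CCAAT was found at 4 of the IGF2 starts and at the STAT3 start, against 35.4% of promoters, and GGGCGG at 12 IGF2 starts, 1 IGFALS start and the STAT3 start, against 50.6%. TATAA, present in 19.2% of promoters, was found at 2 IGF2 starts and 1 IGFALS start. Several IGF2 starts lie a few bases apart, so the same copy of a motif was counted at more than 1 of them and the counts are not of separate promoters. The 19556 promoters were taken at 1 start per protein-coding gene, its outermost, whereas IGF2, IGFALS and STAT3 were searched at every annotated start. The shares of motifs and of G and C content therefore set unlike kinds of starts side by side. The G and C content of the window of the IGF2 start shown was 78.7%, above that of 94.04% of promoters. It was near the top of the range over the 15 IGF2 starts, 59.3% to 79.0%. The STAT3 window, at 64.3%, lay within that range, and the 2 IGFALS windows had 57.7% and 76.0%. The counts are per gene, so which start was used in fat was not measured, and a match of letters is not a binding site.

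The table of values per pig holds genes that the authors had already called different between these same 8 pigs, so the breed differences below are descriptions of the chosen genes and not independent evidence. Size factors ran from 0.675 to 1.10 in AL and from 1.06 to 1.46 in BI, and the 458 genes held between 359708 and 883622 reads per pig, the total count of each library not being analysed here. A step of the values was taken as 1 read, which too few low values were listed to establish in every pig, so reads and counting errors below rest on that reading. Of the adipocyte markers, PLIN1 had an authors' mean of 1567 normalized counts, FABP4 of 673, ADIPOQ of 173 and PPARG of 10.9. The libraries were stranded, and the strand setting of the counting is not given in the sources used here. Per kb, ND6, the single minus-strand coding gene of the mitochondrial genome, had an authors' mean of 165959, while the 12 plus-strand genes had between 572 and 10734. All of the 50 nuclear genes with the highest authors' means, and 96 of the top 100, had a coding gene on the opposite strand that overlapped them or lay within 5 kb past their 3′ end, against 44.2% of 8321 genes placed. How many of the reads of IGF2, IGFALS and STAT3 came from the opposite strand was not tested, and their values are those of the rows that carry their identifiers. Which strand was counted decides what these values measure, so a count below is that of a gene's row and may not be that of its own transcript.

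All 3 genes had higher normalized counts in BI, and for each of them every BI pig lay above every AL pig. IGF2, the growth factor, was 1.85 times as high by the breed means, STAT3, the transcription factor, 1.91 times, and IGFALS, the carrier subunit, 2.47 times. This non-overlap was not rare in the table: 79.5% of the 458 genes had no overlap in either direction, 31.2% with BI higher and 48.3% with AL higher. With 4 pigs against 4, non-overlap gives the smallest p that the exact permutation test allows (two-sided, p = 0.029), and with the Benjamini-Hochberg method over the 458 genes the exact permutation p was adjusted to 0.036 for each gene. This p is the same for every gene without overlap, whatever its spread, so it restates the non-overlap of these pigs.

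**Figure D1:**
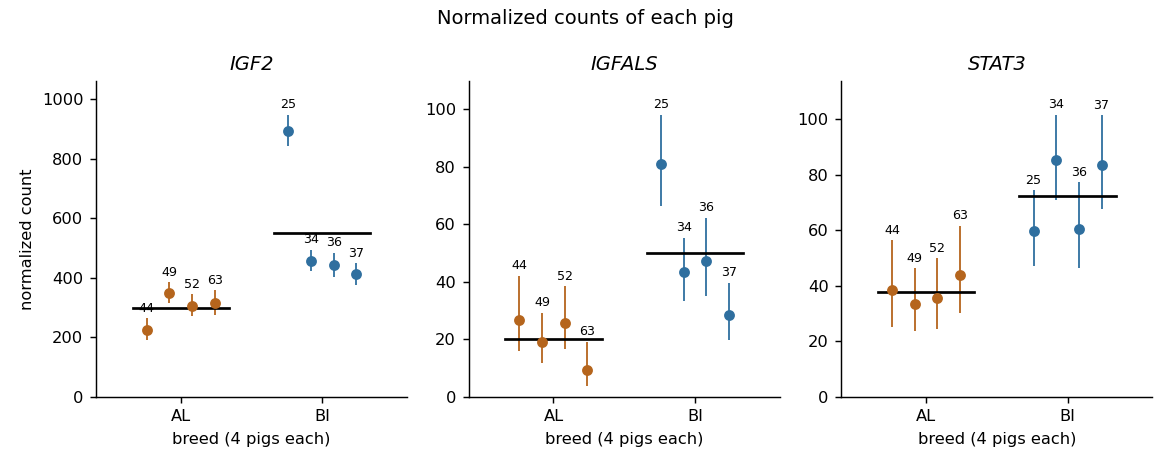
Normalized count (linear vertical axis from 0, a separate scale for each gene) of IGF2, IGFALS and STAT3 in each of 4 AL and 4 BI pigs, with the replicate number over each point, 95% Poisson intervals of the reads as bars and the breed mean as a black line. All BI points lie above all AL points, narrowly for IGFALS, and BI replicate 25 stands far above the other BI pigs for IGF2.

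The normalized counts of IGF2 in AL were 225 in replicate 44, 347 in replicate 49, 306 in replicate 52 and 315 in replicate 63. In BI they were 894 in replicate 25, 457 in replicate 34, 442 in replicate 36 and 411 in replicate 37. The 3 lower BI pigs lay close together and not far above the highest AL pig, by 63.5 normalized counts at the least, whereas BI replicate 25 stood alone. The normalized count averaged 298 ± 51.9 for the 4 AL pigs and 551 ± 229 for the 4 BI pigs (mean ± SD), and the difference of the means of log2(normalized count + 1), AL minus BI, was −0.82 (standard error 0.29). The coefficient of variation was 17.4% in AL and 41.6% in BI, and counting error alone gave 6.26% and 3.80%, since between 152 and 1169 reads lay behind each value.

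Without BI replicate 25 the log2 difference of IGF2 was −0.56, and on the breed medians over all pigs it was −0.53. Without AL replicate 44, the lowest AL pig, the breeds still did not overlap, but over the splits of 3 against 4 pigs the exact permutation p was 0.057, with a log2 difference of −0.69. In limma, fitted over all 458 genes, the adjusted p of IGF2 was 0.020, with an interval of the log2 difference from −1.48 to −0.16.

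The normalized counts of IGFALS in AL were 26.7 in replicate 44, 19.04 in replicate 49, 25.8 in replicate 52 and 9.30 in replicate 63. In BI they were 81.1 in replicate 25, 43.3 in replicate 34, 47.2 in replicate 36 and 28.3 in replicate 37. The lowest BI pig and the highest AL pig, replicates 37 and 44, were 1.67 normalized counts apart, and 1 read was worth 0.833 in the former and 1.48 in the latter, so the order of these pigs was within counting error. The normalized count averaged 20.2 ± 8.03 for the 4 AL pigs and 49.98 ± 22.3 for the 4 BI pigs (mean ± SD), a log2 difference of −1.27 (standard error 0.45). Only 7 to 24 reads lay behind each AL value and 34 to 106 behind each BI value, and counting error accounted for a coefficient of variation of 24.4% in AL and 12.7% in BI, where 39.7% and 44.5% were observed.

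IGFALS had the log2 difference of largest size and the widest error of the 3 genes. Leaving out AL replicate 44, 49, 52 or 63 gave log2 differences of −1.43, −1.27, −1.41 and −0.95, and leaving out BI replicate 25 gave −1.01. The breeds still did not overlap, but over the splits of 3 against 4 pigs the exact permutation p was 0.057 without any of the AL pigs and 0.086 without BI replicate 25. In limma its adjusted p was 0.011, with an interval from −2.13 to −0.41. The exons of IGFALS share no base with those of LOC110259948, and NUBP2, an iron-sulfur cluster assembly factor on the opposite strand, ends 0.628 kb past its 3′ end with an authors' mean of 169 normalized counts against 35.1 for IGFALS. Of 33 genes within 250 kb of IGFALS, TMEM204, an endothelial membrane protein, was the only other one with values per pig. It averaged 13.1 ± 3.15 normalized counts for the 4 AL pigs and 47.6 ± 21.2 for the 4 BI pigs (mean ± SD), a log2 difference of −1.72 (standard error 0.33).

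The normalized counts of STAT3 in AL were 38.5 in replicate 44, 33.6 in replicate 49, 35.5 in replicate 52 and 43.8 in replicate 63. In BI they were 59.6 in replicate 25, 85.2 in replicate 34, 60.5 in replicate 36 and 83.3 in replicate 37. The AL pigs formed a tight group, the BI pigs fell into a lower and a higher pair, and 15.8 normalized counts separated the nearest pigs of the breeds. The normalized count averaged 37.8 ± 4.48 for the 4 AL pigs and 72.2 ± 14.0 for the 4 BI pigs (mean ± SD), a log2 difference of −0.90 (standard error 0.16). The coefficient of variation of 11.8% in AL was below the 17.9% that counting error alone would give for 26 to 37 reads, and in BI it was 19.4% against 10.5%.

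STAT3 had the smallest spread of the 3 genes. Its within-breed SD on the log2 scale ranked 28 from the smallest of 458, against 205 for IGF2 and 364 for IGFALS, and leaving out 1 pig at a time gave log2 differences from −0.98 to −0.81. The exact permutation p was then 0.029 in each case, the smallest that 3 pigs against 4 allow. In limma its adjusted p was 0.0076, with an interval from −1.43 to −0.37. STAT5A, another transcription factor of the family, lies on the opposite strand with its 3′ end 3.13 kb past that of STAT3, and its authors' mean was 2873 normalized counts against 55.0 for STAT3.

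**Figure D2:**
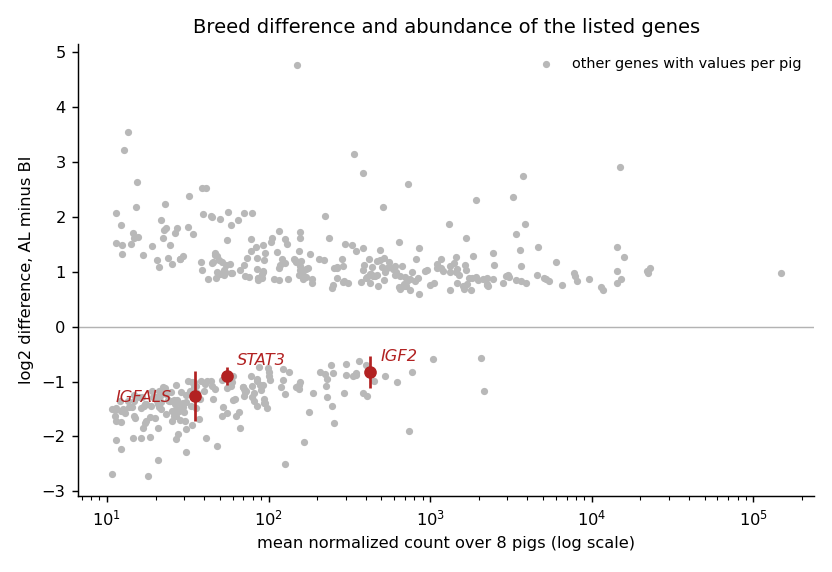
Difference of log2(normalized count + 1), AL minus BI, against the mean normalized count over 8 pigs (log axis) for the 458 genes, with IGF2, IGFALS and STAT3 in red and their standard errors as bars. The 3 genes lie below 0, at −0.82, −1.27 and −0.90, among the smaller to middle differences; the empty band around 0 is left by the authors' selection of genes.

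Among the 458 genes the differences of these 3 were not among the largest. By size of the log2 difference IGFALS ranked 189, STAT3 ranked 367 and IGF2 ranked 415, and the median size over all 458 was 1.19. The table leaned to AL, with a positive sign for 263 genes and a negative one for 195, and a median log2 difference of 0.83, so all 3 genes went against the larger side. Rescaling the pigs by the median of ratios over these genes shifted that median by −0.51 and gave −1.34 for IGF2, −1.76 for IGFALS and −1.41 for STAT3, and scaling by the upper quartile shifted it by −0.65. The 221 genes called higher in AL and 143 called higher in BI then became 102 and 171 under the first of these scalings and 60 and 176 under the second.

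The pigs were not ordered alike for the 3 genes. In BI, replicate 25 was the highest and replicate 37 the lowest pig for both IGF2 and IGFALS, whereas replicate 25 was the lowest for STAT3. In AL, replicate 63 was the highest pig for STAT3 and the lowest for IGFALS, and replicate 44 was the highest for IGFALS and the lowest for IGF2.

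The genes most like each of the 3 within the breeds were found by the correlation over 8 pigs of log2 values after the breed means were taken out, which is a description over points that share their libraries. For IGF2 they were NASP, a histone chaperone (Pearson r = 0.93), SYNE3, a nuclear envelope protein (0.90), and CYP2A19, a cytochrome P450 (0.88). NASP shared with IGF2 the highest BI pig, replicate 25, and the lowest AL pig, replicate 44, while the other 3 BI pigs were ordered differently for the 2 genes. Its breed difference had the other sign, with 41.8 ± 8.28 normalized counts for the 4 AL pigs and 12.5 ± 7.63 for the 4 BI pigs (mean ± SD). For IGFALS they were CREBBP, a histone acetyltransferase (0.88), ANKRD11, a chromatin regulator (0.87), and PLEKHG5 (0.86). For STAT3 they were KLF2, a transcription factor of endothelial and immune cells (0.95), HEATR9 (0.89) and TAS2R39, a bitter taste receptor (0.84). TAS2R39 was near the floor in AL, at 1.33 normalized counts or fewer. In BI it had 38.5 and 40.0 in replicates 34 and 37 but 1.53 and 2.83 in replicates 25 and 36.

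KLF2 ordered the BI pigs as STAT3 did. Its normalized counts were 169, 145, 139 and 243 in AL replicates 44, 49, 52 and 63, and 299, 565, 317 and 452 in BI replicates 25, 34, 36 and 37. As for STAT3, BI replicates 34 and 37 were the higher pair and AL replicate 63 was the highest AL pig. Among the 458 genes, a correlation of at least 0.8 was reached by 6 genes for IGF2, 8 for IGFALS and 14 for STAT3. Over only 8 pigs unrelated genes can also reach such a correlation. How many would do so was not tested, so these counts do not show that the genes vary together.

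**Figure D3:**
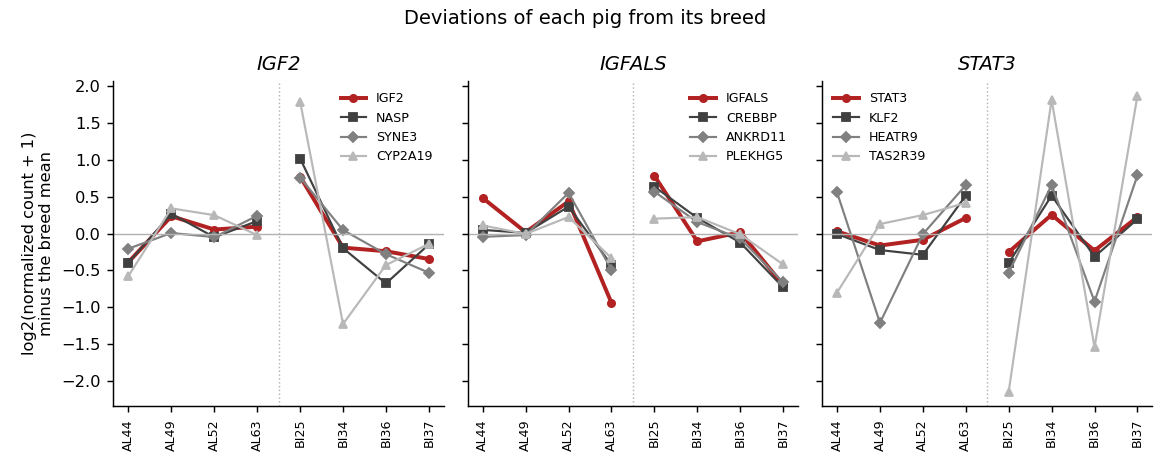
Deviation of log2(normalized count + 1) of each pig from its breed mean (vertical axis, log2 units) for IGF2, IGFALS and STAT3 in red and the 3 genes most like each of them in grey. Pigs are on the horizontal axis, a dotted line parts the breeds, and lines only join the points of one gene. The grey line that departs most widely from the red one is that of TAS2R39.

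The other genes of the IGF axis could be described only by level. Of 22 genes in a list of ligands, receptors, binding proteins, proteases and RNA-binding proteins of this axis, 15 had an authors' mean over the 8 pigs, the other 7 were not analysed here, and IGF2 and IGFALS alone had values per pig, both higher in BI without overlap, as were 31.2% of the 458 genes. Per kb of RefSeq exon, the authors' mean of IGF2 was 58.0 and that of IGFALS 16.6. The binding proteins IGFBP7, IGFBP4 and IGFBP5 lay above IGF2, at 1111, 149 and 78.3 per kb, and IGFBP6 below it at 35.6. For IGFBP4 and IGFBP5 this order rests on the exon lengths used, 0.78 and 0.967 kb against 7.326 kb for IGF2. Before division by length, IGF2 had an authors' mean of 425, above 116 for IGFBP4 and 75.7 for IGFBP5 and below 1245 for IGFBP7.

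The row of the ligand IGF2 was far above that of its relative IGF1, the growth hormone dependent form, which had 0.858 per kb. Receptors were low per kb: 7.90 for IGF2R, the receptor that clears IGF2, 0.643 for IGF1R and 0.554 for INSR. No error can be given for these means of the authors, the strand counted is not known, so that the order of rows may not be that of transcripts, and exon lengths of RefSeq models that lack untranslated parts inflate the level per kb.

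Of 40 genes of JAK-STAT signalling, 28 had an authors' mean and 3 had values per pig. The row of STAT3 had 22.2 per kb, below STAT5A at 749 and STAT6 at 40.5 and above STAT5B at 5.35 and STAT2 at 3.11. The feedback inhibitors CISH and SOCS3 had 233 and 40.3 per kb, and PIAS3, an inhibitor that binds STAT3 itself, had 50.3. The receptor chain IL6ST, shared by interleukin 6 family cytokines, had 1.02 per kb and the kinases JAK1 and TYK2 had 3.16 and 3.53.

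**Figure D4:**
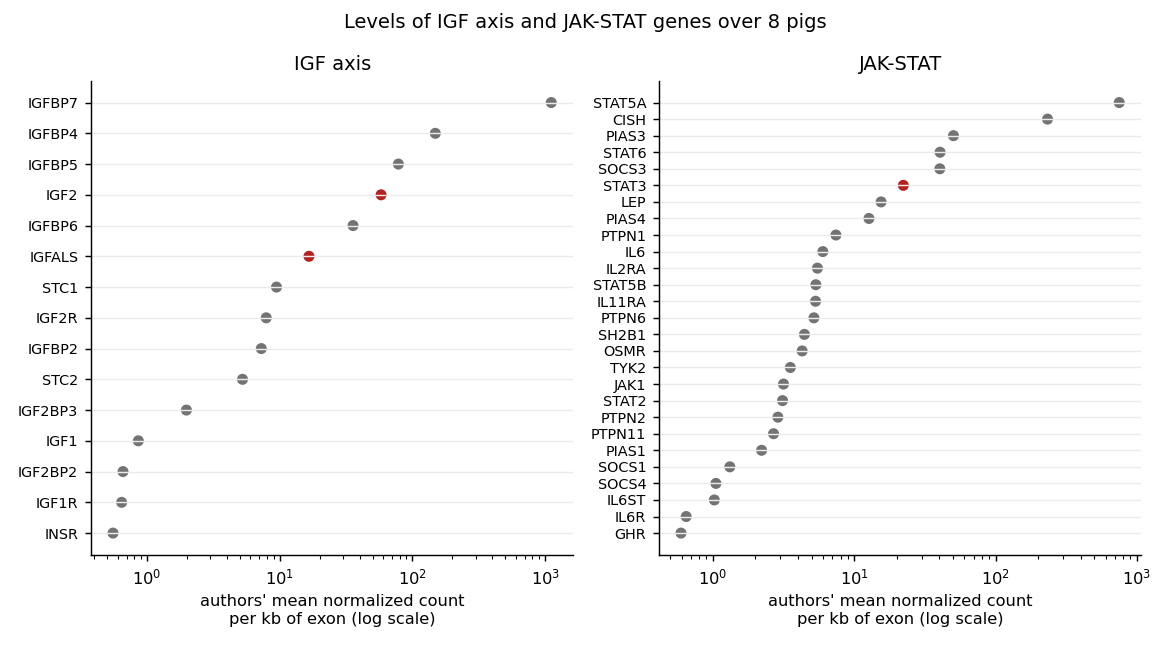
Authors' mean normalized count per kb of exon over 8 pigs (log axis) for 15 genes of the IGF axis, left, and for the genes of JAK-STAT signalling with a mean and an exon length, right, with IGF2, IGFALS and STAT3 in red. IGF2 at 58.0 stands in its panel under 3 binding proteins, for IGFBP4 and IGFBP5 only after division by exon length. STAT3 at 22.2 stands under STAT5A, CISH, PIAS3, STAT6 and SOCS3.

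Beside STAT3, the JAK-STAT genes with values per pig were LEP, which encodes leptin, and IL2RA, a chain of the interleukin 2 receptor. IL2RA was higher in BI, at 42.7 ± 24.04 (SD, n = 4) normalized counts against 13.3 ± 5.07 (SD, n = 4) in AL, with a log2 difference of −1.53 (standard error 0.46) and an exact permutation p of 0.029. The levels of LEP, a ligand whose receptor signals through STAT3, overlapped between the breeds. They ran from 44.4 to 181 normalized counts in AL and from 24.2 to 86.0 in BI, a log2 difference of 1.37 (standard error 0.58, exact permutation test, p = 0.057).

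Of 25 adaptors and kinases that act after the insulin and IGF receptors, 21 had an authors' mean and 5 had values per pig, of which 2 were higher in AL without overlap and 0 in BI, against 48.3% and 31.2% of the 458 genes. The row named IRS1, after the docking protein of both receptors, had a log2 difference of 0.97 (standard error 0.25), and SHC1, an adaptor protein, of 0.87 (standard error 0.14), with an exact permutation p of 0.029 each. Both had the opposite sign to IGF2 and IGFALS in every pairing of an AL with a BI pig. The listed genes numbered next to the identifier of the row named IRS1, GPC2 and METTL27, lie on chromosome 3. RefSeq places IRS1 on chromosome 15, and whether this row is that of IRS1 was not tested. The breeds overlapped for CBL (1.22, exact permutation p = 0.086), GYS1, glycogen synthase (0.98, exact permutation p = 0.057), and PIK3R4 (−1.22, exact permutation p = 0.11).

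GYS1 had the third highest authors' mean of 10710 genes, 148289 normalized counts, and FTL, the ferritin light chain gene on the opposite strand 1843 bases away, had 262. How far reads of FTL entered the values of GYS1 was not tested.

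Of 19 genes known as targets of STAT3 in other tissues, 17 had an authors' mean and 4 had values per pig. FOS, an immediate early transcription factor, and ITIH4, an acute phase protein, were higher in BI, with log2 differences of −1.21 (standard error 0.40) and −0.99 (standard error 0.29) and an exact permutation p of 0.029 each. A2M, the protease inhibitor alpha-2-macroglobulin, was higher in AL, at 23.4 ± 7.20 (SD, n = 4) normalized counts against 2.16 ± 2.12 (SD, n = 4), a log2 difference of 3.21 (standard error 0.63, exact permutation p = 0.029). ICAM1, an adhesion molecule, overlapped between the breeds (−1.53, standard error 0.64, exact permutation p = 0.086). By sign, FOS, ITIH4 and ICAM1 went the same way as STAT3 and A2M the other way, where 195 of the 458 genes were higher in BI and 263 in AL. The share of genes called was 79.5% over the whole table, 31.2% higher in BI and 48.3% higher in AL. The 3 called of these 4, 2 higher in BI and 1 in AL, are to be read against these shares.

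**Figure D5:**
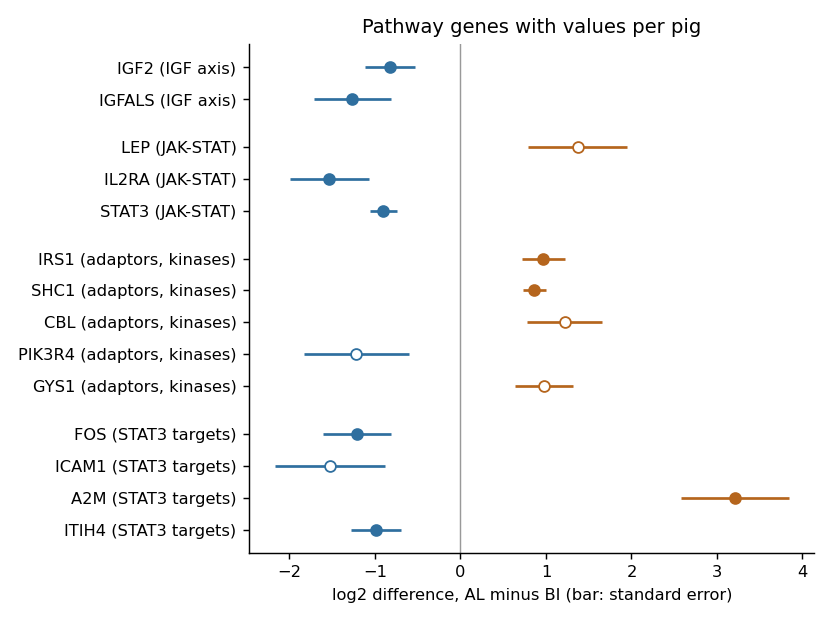
Difference of log2(normalized count + 1), AL minus BI (horizontal axis), with the standard error as a bar for the 14 pathway genes with values per pig that are named in the text, grouped by list. Filled points have an exact permutation p of 0.029 and open points a higher p; the IGF axis genes and STAT3 lie left of 0, and all but 1 of the adaptors and kinases lie to the right.

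Markers of cell types moved with the breeds in part. Of 9 adipocyte markers, 3 had values per pig, being among the genes that the authors had called different, and the direction of the others, ADIPOQ and PLIN1 included, was not measured here. The 3 were LEP, FABP4 and CEBPA, which summed to between 1080 and 1501 normalized counts in AL pigs and between 523 and 755 in BI pigs. Most of this sum was FABP4, a fatty acid carrier, which ran from 792 to 1045 in AL and from 317 to 641 in BI, while LEP and CEBPA overlapped. Of the 8 endothelial markers, 3 had values per pig, and the direction of the others was not measured here. TIE1 and CLEC14A were higher in BI, with log2 differences of −1.41 (standard error 0.26) and −1.06 (standard error 0.28), and EGFL7 was higher in AL (0.89, standard error 0.21). None of these overlapped between the breeds, as held for 31.2% of the 458 genes with BI higher and 48.3% with AL higher. No values per pig were analysed here for the 10 stromal, 8 macrophage, 5 smooth muscle, 3 red blood cell and 5 hepatocyte markers, so the range of these cells between pigs was not measured, and IL2RA was the one with values among 7 T and B cell markers. MYBPH, 1 of the 9 skeletal muscle markers, was higher in AL (1.19, standard error 0.18) while MYH7 had −2.04 (standard error 0.83, exact permutation p = 0.086). The part of cell composition in the differences of IGF2, IGFALS and STAT3 was not tested, and in a whole tissue fewer cells of a type and less RNA per cell cannot be told apart.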

How the data were processed

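The authors trimmed the reads with Trim Galore 0.5.0, aligned them to Sscrofa11.1 with HISAT2 2.1.0 and SAMtools 1.9, counted them per gene with HTSeq 0.11.1 and divided the counts by DESeq2 size factors. The strand setting is not given in the sources used here. The deposited values are such normalized counts, a signal per gene and pig, for the 458 genes that the authors had called different, together with a mean normalized count for 10710 genes. The deposited columns of the authors' fold changes, standard errors, statistics and p-values were not used. Every value was a whole multiple of 1 step per pig (tolerance 0.01 reads), which gave size factors and, taking a step as 1 read, reads per value; too few low values were listed to establish this in every pig. Intervals on these cover counting error only.

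Values were tested as log2(normalized count + 1), AL minus BI, by an exact two-sided permutation of the breeds over 70 splits and the Benjamini-Hochberg method over 458 genes. A gene was called at p below 0.05, which with 4 pigs a breed is the same as no overlap. Alternatives were other pseudocounts, scalings, medians, ratios of means, a rank-sum test, limma 3.58.1 in R 4.3.3, a filter at a mean of 50 and leaving out each pig. The labels gave the breed and pig number; nothing else was used for grouping. Named genes were IGF2, IGFALS, STAT3, the genes of 4 pathway lists and the marker lists with values per pig, the 3 genes most like each of the first 3, and neighbours within 250 kb with values per pig. Some genes of the lists are not reported here. The genes and lists were chosen with earlier results of these data known, and the comparisons of strands were added after values were seen. The test was tried on simulated counts of 458 genes with 200 changed by a log2 of 2. There 96.0% of the changed and 4.26% of the other genes had an exact permutation p below 0.05. IGF2, IGFALS and STAT3 had log2 differences of smaller size, −0.82, −1.27 and −0.90. How often the test calls genes at such differences, or in a table of preselected genes, was not tested. The scripts ran in Python 3.11.15 with pandas 2.3.3, NumPy 2.4.6, Matplotlib 3.10.9 and SciPy 1.17.1.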

Additional observations from a re-analysis of the deposited data

Results flagged for a closer look

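In 4 of 62 groups of 4 pigs, over 31 named genes, a single pig lay far from the other 3, and chance alone flags about 1 in 20 such groups. IGF2 had 894 normalized counts in BI replicate 25, and the next BI pig had 457. CYP2A19 had 242 normalized counts in the same pig, with 62.5 in the next. It was named only for its likeness to IGF2 over these pigs, so its flag is not separate from that of IGF2. LEP had 86.0 in BI replicate 36 and at most 32.1 in the other BI pigs. GYS1 had 138340 in AL replicate 52, below 209617 in the next AL pig.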

How the results depend on the processing

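All 3 genes kept the sign and the side of the threshold under both scalings and limma, but these outcomes say little of stability. Both scalings shifted the median log2 difference of the listed genes towards BI, by −0.51 and −0.65, which favours genes higher in BI. Limma called 455 of the 458 genes, all preselected. Under the other pseudocounts, the ratio of means and the exact rank-sum test the p is fixed by non-overlap and says nothing of stability. These settings gave log2 differences from −1.47 to −0.80 for IGF2, −1.89 to −0.96 for IGFALS and −1.53 to −0.77 for STAT3. The medians, whose permutation cannot go below 0.057, gave −0.53, −0.996 and −0.92 as values only. Leaving out 1 pig at a time gave −0.94 to −0.56 for IGF2, −1.50 to −0.95 for IGFALS and −0.98 to −0.81 for STAT3. Without a pig the breeds cannot come to overlap, but over the unequal splits the exact permutation p passed 0.05 for IGF2 without AL replicate 44, and for IGFALS without each AL pig and without BI replicate 25. Of 458 genes, the count called fell from 364 to 236 with upper quartile scaling. Genes called higher in AL fell from 221 to 102 with the median of ratios and 60 with the upper quartile, and genes called higher in BI fell from 143 to 65 with a mean of at least 50, which tests fewer genes. Without 1 pig the calls ran from 201 to 349, those higher in AL from 104 to 221 and those higher in BI from 93 to 128. The lower counts came without AL replicate 44, 49, 52 or 63, at 224, 205, 224 and 201 calls, and the 93 higher in BI without AL replicate 49. The cause was not tested. With limma 455 genes were called, 262 higher in AL and 193 in BI. The count tests on reads were not run, since too few low values were listed to establish in every pig that a step is 1 read. No paired analysis was possible because the breeds share no replicate numbers.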
